A study of Mus musculus with 6 samples.

Results

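The arrays compared here are the 3 whose titles carry replicate number 1 and the 3 whose titles carry replicate number 2, matched within genotype. They make up 6 of the 6 samples of the series, or 3 pairs of arrays. The members were taken from the titles alone, so no measured value chose them. The RNA came from fibroblasts of mouse embryos, a connective tissue cell type that grows in culture, and each sample had been hybridised to 1 Illumina bead array. The 3 genotypes were IKKa-/- cells, cells labelled IKKa+/+reconstituted, and wild-type cells, each with an array numbered 1 and an array numbered 2. All 6 samples came from cells kept in 10% FCS, that is, fetal calf serum, and taken at 80% confluency. No sample was labelled as stimulated, and the labels give the arrays numbered 1 and those numbered 2 the same treatment. Neither the number of clones behind each genotype nor the construct used for reconstitution is stated in the sources used here. Nothing in the labels says that the 2 samples of a genotype came from separate cultures. The spread behind the p-values is that of the pair difference between the 3 genotypes, and part of it may be technical.

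IKKa is encoded by Chuk and phosphorylates proteins of the NF-kB pathway. In resting cells NF-kB dimers are held in the cytoplasm by inhibitor proteins of the IkB family, and after an inflammatory stimulus IKK kinases mark these inhibitors for degradation. The freed dimers switch on chemokines, adhesion molecules and their own inhibitors, among them Nfkbia and Tnfaip3, which close the loop. Immediate early genes such as Fos, Egr1 and Junb answer to serum, growth factors or stress without new protein synthesis. Interferon-stimulated genes such as Isg15 answer to interferon through STAT and IRF factors. Fibroblasts are known to run each of these programmes when stimulated.

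The genes that stood highest on the arrays numbered 1 included textbook NF-kB targets, so the promoters of 4 of these highest genes are shown, 3 with and 1 without a match to the kB consensus, the NF-kB binding motif. The sequences are from RefSeq on build GRCm38.p6, from 250 bases before to 50 bases after the annotated start, 5′ to 3′ on the strand of the gene. Capitals mark the kB matches, which were searched on both strands. The regions are chr5:90890995-90891294 on the + strand for Cxcl1, chr12:55492598-55492897 on the - strand for Nfkbia, chr10:19015361-19015660 on the - strand for Tnfaip3 and chr3:96557707-96558006 on the + strand for Txnip.
Cxcl1: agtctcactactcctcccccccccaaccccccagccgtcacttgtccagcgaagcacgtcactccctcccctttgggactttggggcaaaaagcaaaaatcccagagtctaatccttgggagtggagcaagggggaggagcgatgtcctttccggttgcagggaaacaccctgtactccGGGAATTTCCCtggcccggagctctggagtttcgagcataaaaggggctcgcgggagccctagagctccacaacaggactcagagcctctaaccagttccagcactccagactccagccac
Nfkbia: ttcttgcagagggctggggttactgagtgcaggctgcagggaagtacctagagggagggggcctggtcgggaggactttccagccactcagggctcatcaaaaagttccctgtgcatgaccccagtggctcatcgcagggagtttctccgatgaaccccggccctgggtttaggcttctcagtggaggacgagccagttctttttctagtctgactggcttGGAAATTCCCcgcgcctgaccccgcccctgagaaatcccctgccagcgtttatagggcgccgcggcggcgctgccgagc
Tnfaip3: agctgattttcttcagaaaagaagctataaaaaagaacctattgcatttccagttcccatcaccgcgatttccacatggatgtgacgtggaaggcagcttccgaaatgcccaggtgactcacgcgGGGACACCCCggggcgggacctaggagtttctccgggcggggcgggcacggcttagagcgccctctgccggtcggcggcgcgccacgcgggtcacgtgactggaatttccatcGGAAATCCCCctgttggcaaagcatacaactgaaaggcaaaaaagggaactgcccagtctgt
Txnip: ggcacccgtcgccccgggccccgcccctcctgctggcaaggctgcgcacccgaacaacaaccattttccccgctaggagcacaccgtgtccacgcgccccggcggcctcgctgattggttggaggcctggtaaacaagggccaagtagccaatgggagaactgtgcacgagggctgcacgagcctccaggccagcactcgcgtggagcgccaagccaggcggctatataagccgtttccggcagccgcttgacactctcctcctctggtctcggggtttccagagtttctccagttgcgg

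In Cxcl1 the capitals are 2 overlapping matches, the outer of which starts 71 bases before the annotated start. The match in Nfkbia starts 29 bases before the start, and those in Tnfaip3 lie 125 and 12 bases before it. The consensus was present in 8.46% of all 32851 promoter windows of this length and in at least 1 window of 12.3% of the 6118 tested genes that have one. Of the 12 genes with the strongest shared excess on the arrays numbered 1, 7 had a window and 4 of these held a match, namely Cxcl1, Irf1, Tnfaip3 and Nfkbia. Of the 12 genes at the other end, 9 had a window and 2 of these held a match. The cAMP response element TGACGTCA, the CArG box bound by SRF, and the interferon-stimulated response element (ISRE) were found in 0 of the 7 and 0 of the 9. A match is a description of the letters only, since binding was not measured.

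Median bead intensity lay between 111.1 and 118.2 units on the 3 arrays numbered 1 and between 116.5 and 123.1 on the 3 arrays numbered 2. Mean intensity differed more, at 304.5 and 327.1 on the IKKa-/- arrays numbered 1 and 2, 339.5 and 255.7 on the reconstituted arrays, and 271.9 and 317.3 on the wild-type arrays. Targets detected above background numbered 10800 and 10997 on the IKKa-/- arrays numbered 1 and 2, 11092 and 9220 on the reconstituted arrays, and 9794 and 9843 on the wild-type arrays. The reconstituted array numbered 2 thus had the fewest targets above background and the lowest mean. The housekeeping genes Actb and Gapdh differed by at most 0.23 on the log2 scale in any pair. Of 12 fibroblast markers, 9 were tested, while Lum, Fap and Postn were not. Of 12 blood and macrophage markers, 9 were on the array and only Cd14 was tested. Ptprc, Adgre1, Itgam and Tyrobp were within background on all 6 arrays, as were Pecam1 and Cdh5 of endothelium and Cdh1 of epithelium. A target for SV40 large T antigen read 4431.6 and 6076.1 intensity units on the wild-type arrays numbered 1 and 2. It read 212.3 and 203.2 on the reconstituted arrays, above background, and 88.6 and 111.8 on the IKKa-/- arrays, within it. Xist was above background on the wild-type arrays only, and Eif2s3y and a NeoR target on the IKKa-/- and reconstituted arrays only. The wild-type cells are thus not matched to the others in these respects. Chuk itself is not analysed here. In bulk RNA, fewer cells of a type and less RNA per cell cannot be told apart.

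The arrays numbered 1 and those numbered 2 differed in few targets that passed the test. With genotype as a block, limma called 4 of 11666 tested probes at an adjusted p under 0.05, or 0.0343%. Of these, 3 were higher on the arrays numbered 1 (0.0257%) and 1 was lower (0.00857%). The called rises were Cxcl1, a chemokine that draws neutrophils, Hes1, a transcriptional repressor known as a target of Notch signalling, and Txnip, an inhibitor of thioredoxin that restrains glucose uptake. The called fall was a target named for the RIKEN clone F830002E14, which carries no gene symbol in the annotation used. At an unadjusted p under 0.05 there were 625 higher probes (5.36%) and 473 lower ones (4.05%). Without the wild-type pair limma called 29 higher and 4 lower probes, without the reconstituted pair 12 and 2, and without the IKKa-/- pair 0 and 0, where 355 higher and 183 lower probes passed at an unadjusted p under 0.05. Without background correction limma called 38 higher and 6 lower probes, and without a filter on dim probes or without genotype in the model 0 and 0.

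Cxcl1 had log2 signals of 14.52 on the array numbered 1 and 10.19 on the array numbered 2 in IKKa-/- cells, 13.89 and 8.23 in reconstituted cells, and 12.76 and 8.43 in wild-type cells. Every array numbered 1 was above every array numbered 2. The differences of 4.33, 5.66 and 4.32 correspond to 20.1-fold in IKKa-/- cells, 50.7-fold in reconstituted cells and close to the IKKa-/- value in wild-type cells. Their mean was 4.77 ± 0.285 (moderated SE of limma, 3 pairs), with an adjusted p of 0.0211 in limma. The moderated SE draws on the variance of all tested probes as well. The SD of the 3 differences was 0.77.

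Hes1 read 11.05 and 7.30 on the log2 scale on the IKKa-/- arrays numbered 1 and 2, 11.55 and 8.95 on the reconstituted arrays, and 11.08 and 7.95 on the wild-type arrays. The 3 arrays numbered 1 lay between 11.05 and 11.55, above every array numbered 2. The mean difference was 3.16 ± 0.230 (moderated SE, 3 pairs), or 8.93-fold, with a limma adjusted p of 0.0239. Txnip read 11.38 and 9.61 on the IKKa-/- arrays, 11.90 and 10.36 on the reconstituted arrays, and 10.00 and 8.25 on the wild-type arrays. Its 3 differences of 1.78, 1.54 and 1.75 were close to each other, while the groups overlapped, since the wild-type array numbered 1 was below the reconstituted array numbered 2. Their mean was 1.69 ± 0.141 (moderated SE, 3 pairs), or 3.23-fold, with a limma adjusted p of 0.0406.

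The clone F830002E14 target read 8.97 and 12.79 on the IKKa-/- arrays numbered 1 and 2, 9.56 and 12.94 on the reconstituted arrays, and 9.74 and 12.37 on the wild-type arrays. The 3 arrays numbered 1 were all below the 3 arrays numbered 2. The mean difference was -3.28 ± 0.237 (moderated SE, 3 pairs), 9.71-fold lower on the arrays numbered 1, with a limma adjusted p of 0.0239.

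**Figure D1:**
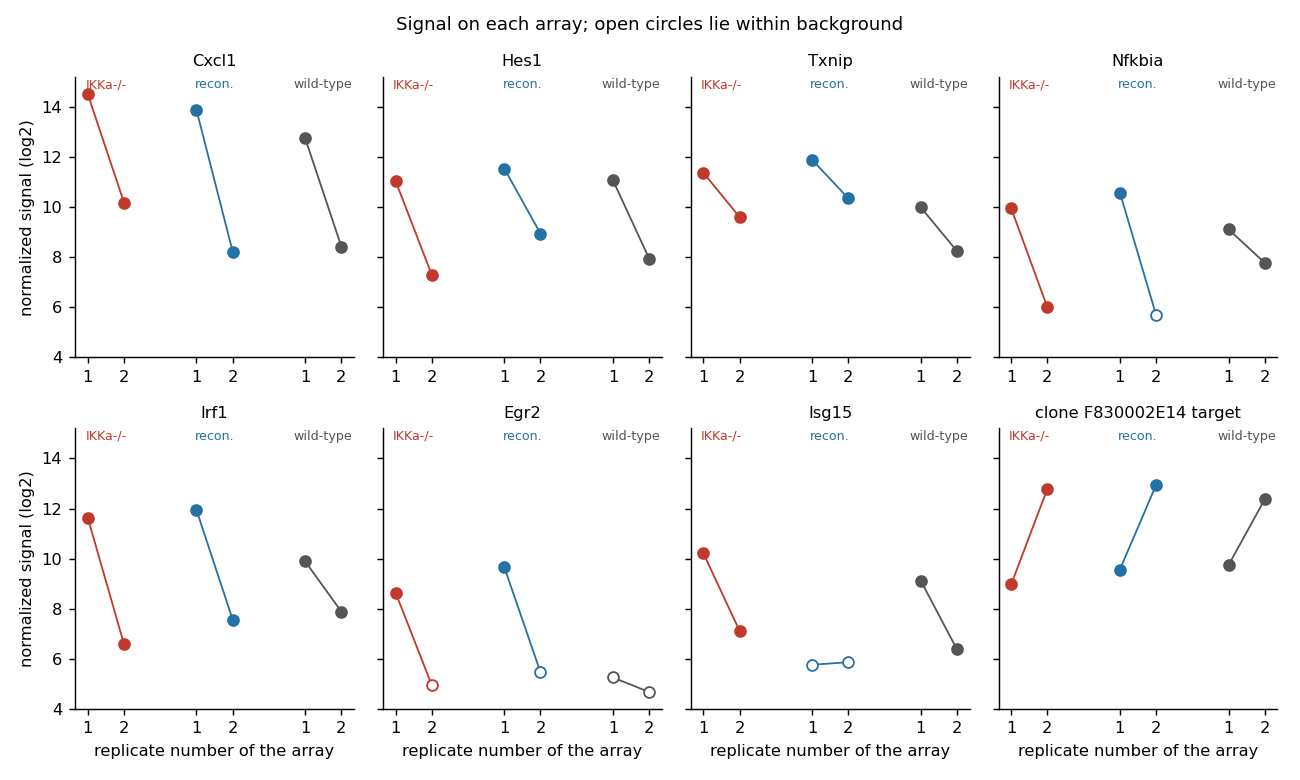
Normalized signal (log2) on each array for 8 targets, replicate number 1 left of number 2, with a line joining the arrays of a genotype and open circles for arrays within background. Cxcl1, Hes1 and Txnip were higher on the array numbered 1 in all 3 genotypes and the clone target was lower, while Egr2 and Isg15 each stayed within background on both arrays of 1 genotype.

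Among single genes, 16 of 7408 were at least 2-fold higher on the array numbered 1 in all 3 pairs by their normalized signals (0.216%), and 0 were at least 2-fold lower in all 3 (0.0%). With arrays within background set at their bounds, 13 of the 16 still were, the exceptions being Osgin1, Cxcl10 and Nr1d1. Limma did not call 13 of the 16, among them chemokines, NF-kB inhibitors and transcription factors. Of these 13, it called 12 without background correction, 13 with an intensity trend in the variance prior, 10 without the wild-type pair, 7 among probes detected on all 6 arrays, and 0 under median scaling, under cyclic loess or without either other pair. Ccl2, a chemokine that draws monocytes, had log2 differences of 4.14 in the IKKa-/- pair, 4.0 in the reconstituted pair and 1.74 in the wild-type pair (adjusted p 0.152 in limma). Ccl7, another chemokine for monocytes, had differences of 3.58, 3.39 and 1.63 in the same order (0.143). In both chemokines the wild-type difference was the smallest of the 3.

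Irf1, a transcription factor induced by interferon and by NF-kB, showed the same order among the pairs. It read 11.63 and 6.58 on the IKKa-/- arrays numbered 1 and 2, 11.94 and 7.56 on the reconstituted arrays, and 9.89 and 7.88 on the wild-type arrays. All arrays numbered 1 were above all arrays numbered 2. The differences were 5.05, 4.38 and 2.01, or 33.0-fold, 20.9-fold and 4.01-fold, with a SD of 1.6. Their mean was 3.81 ± 0.537 (moderated SE, 3 pairs), with an adjusted p of 0.152 in limma. The other 3 probes of Irf1 had mean differences of 3.55, 3.85 and 2.49.

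The feedback inhibitors Nfkbia and Tnfaip3 and the IkB family gene Nfkbiz were higher on the array numbered 1 in every pair without passing the test. All 3 passed it without background correction, with adjusted p of 0.0184, 0.0281 and 0.00573 in limma, and also with an intensity trend and without the wild-type pair. Nfkbia, which encodes the inhibitor IkB alpha, read 9.96 and 6.0 on the IKKa-/- arrays numbered 1 and 2, 10.59 and 5.70 on the reconstituted arrays, and 9.12 and 7.78 on the wild-type arrays. The reconstituted array numbered 2 was within background, so that pair gives at least 17.5-fold, beside 15.6-fold in IKKa-/- cells and 2.52-fold in wild-type cells. The mean difference was 3.40 ± 0.615 (moderated SE, 3 pairs), with an adjusted p of 0.239 in limma. The SD of the 3 differences was 1.85. Tnfaip3, which encodes the ubiquitin-editing protein A20, was 20.1-fold higher on the array numbered 1 in IKKa-/- cells, at least 35.5-fold in reconstituted cells and 2.83-fold in wild-type cells (limma adjusted p 0.28). Nfkbiz, a nuclear IkB protein, was 8.85-fold, 7.29-fold and 2.81-fold higher in the same order (0.143).

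The remaining genes of this set were Junb, an AP-1 subunit, at 6.54-fold, 5.07-fold and 2.68-fold in IKKa-/-, reconstituted and wild-type pairs, and Vcam1, an adhesion molecule for leukocytes, at 6.36-fold, 10.7-fold and 2.20-fold. The other tested probes of Vcam1 had mean log2 differences of 1.17 and 0.67, beside 2.41 for the one shown. Osgin1, a gene of the oxidative stress response, was 2.23-fold higher in the IKKa-/- pair. Its arrays numbered 2 of reconstituted and wild-type cells were within background, so those pairs give at least 1.35-fold and at least 1.72-fold. By the normalized log2 difference in the weakest pair, just beyond these 12 came the innate immune receptor Tlr2, at 1.12, and the interferon-induced chemokine Cxcl10, at 1.07, beside 1.16 and 1.14 for Osgin1 and Vcam1 just inside. The others of the 16 were Chac1, a glutathione-degrading enzyme, and Nr1d1, a repressor of the circadian clock, both named here after their values were seen.

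The 12 genes with the strongest shared lower values had smaller differences, and limma called 0 of them in the main fit. At an unadjusted p under 0.05, 366 of the 7408 named genes were higher (4.94%) and 235 lower (3.17%) on the arrays numbered 1. Rnf145, a ubiquitin ligase of the endoplasmic reticulum, read 8.08 and 9.06 on the IKKa-/- arrays numbered 1 and 2, 8.18 and 9.11 on the reconstituted arrays, and 7.44 and 8.41 on the wild-type arrays. Its 3 differences of -0.98, -0.92 and -0.97 had a SD of 0.03 and a limma adjusted p of 0.152. Limma called Rnf145 without background correction (adjusted p 0.0172), with an intensity trend (0.0212) and among probes detected on all 6 arrays (0.0239). It called Nrn1 without background correction (0.0184) and with the trend (0.0246). Nrn1, a secreted neurite growth factor, had differences of -1.50, -0.71 and -0.91, and Wdfy3, an autophagy scaffold, -0.71, -0.86 and -1.06. Sirt4, a mitochondrial sirtuin, had -0.56, -0.75 and -0.57, and Sc5d, an enzyme of cholesterol synthesis, -0.54, -0.65 and -1.10. The other 7 were the zinc finger genes Zfp692, Zfp94, Zfp672 and Zbed4, the mitochondrial methionyl-tRNA synthetase Mars2, Tmem60 and the amino sugar enzyme Gnpda1, with mean differences between -0.89 and -0.60. Wdfy3, Sc5d, Zbed4 and Mars2 had at least 1 array numbered 1 within background. The next genes by the weakest pair were Stim2 at -0.53 and Fbf1 at -0.51, beside -0.54 for Sc5d and -0.53 for Gnpda1.

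**Figure D2:**
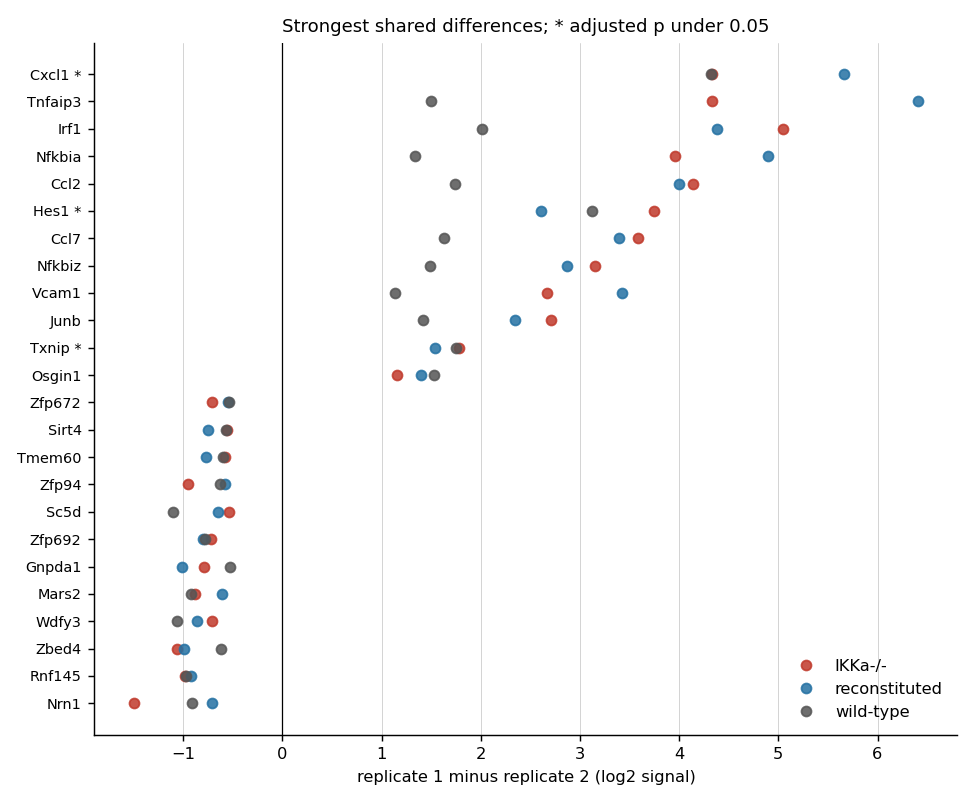
Log2 signal on the array numbered 1 minus that on the array numbered 2, by genotype, for the 12 genes with the strongest shared excess on the arrays numbered 1 and the 12 at the other end. Only 3 names carry the asterisk of an adjusted p under 0.05, and the wild-type point lies left of the other points in 9 of the 12 upper genes.

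Of the 18 NF-kB target chemokines and cytokines on the array, 9 were tested. Limma called 1 of them, Cxcl1, against 0.0405% of all tested genes. By normalized signals, 8 of the 9 were higher on the array numbered 1 in all 3 pairs, against 14.9% of the 7408 tested genes. Cxcl2, Csf2, Ccl5 and Cxcl10 were above background on arrays numbered 1 only, so they passed the detection filter through those arrays. Cxcl2, Csf2 and Ccl5 were also within background on both wild-type arrays, so that pair gives no direction for them. The median difference was 3.23 in the IKKa-/- pair, 2.91 in the reconstituted pair and 1.07 in the wild-type pair, where the medians over all tested genes were -0.01, -0.01 and 0.01. With dim members set at their bounds the list's medians were 2.31, 1.37 and 0.50. The list was chosen with earlier results of these arrays known, so its counts are a description. Cxcl2, a neutrophil chemokine, was within background on both wild-type arrays, while its array numbered 1 stood at least 3.69-fold and 3.90-fold above number 2 in IKKa-/- and reconstituted cells. Csf1, the macrophage growth factor, was the exception, at 0.56, 1.10 and -0.17.

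Of the 10 tested NF-kB subunits and feedback inhibitors, 7 were higher in all 3 pairs by normalized signals, against 14.9% of all tested genes. Limma called 0 of the 10, with 7 higher and 0 lower at an unadjusted p under 0.05, beside 4.94% and 3.17% of all genes. The inhibitors Tnfaip3, Nfkbia, Nfkbie and Nfkbib and the IkB family gene Nfkbiz were among those higher in all 3 pairs. However, Nfkbie was within background on both IKKa-/- arrays. Nfkbib was above background on arrays numbered 1 only, and its reconstituted pair gave no bound. Cyld, a deubiquitinase that restrains the pathway, had -0.23, -0.26 and 0.12 in IKKa-/-, reconstituted and wild-type pairs. Among the subunits, Rela had differences of -0.05, 0.85 and 0.01, Nfkb2 0.72, 0.65 and -0.01, while Relb was above background in wild-type cells alone, with 0.43. Relb counts among the 7 by normalized signals, though its other pairs give no direction. Of 20 tested NF-kB effectors, 11 were higher in all 3 pairs by normalized signals, against 14.9% of all tested genes. Limma called 0 of the 20, with 10 higher and 0 lower at that unadjusted threshold, beside 4.94% and 3.17% of all genes. After Irf1, the highest mean differences were those of Gadd45b, a stress sensor, of Vcam1 and of Tlr2. Gadd45b was 5.19-fold higher in the IKKa-/- pair, at least 7.51-fold in the reconstituted pair and 1.96-fold in the wild-type pair, and Tlr2 had log2 differences of 2.97, 2.56 and 1.12. Ch25h, which makes 25-hydroxycholesterol, was at least 4.74-fold higher in the wild-type pair and within background on both IKKa-/- arrays. The kinases and adaptors above NF-kB gave medians of -0.01, -0.12 and 0.09 over 18 tested members.

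Immediate early genes stood apart in the wild-type pair. Of 34 tested, 33 were higher on the array numbered 1 in IKKa-/- cells, 32 in reconstituted cells and 15 in wild-type cells, against 48.2%, 48.0% and 51.4% of all tested genes. The medians were 1.14, 1.15 and -0.26, or 1.12, 0.99 and 0.00 with dim members at their bounds. At least 2-fold higher were 19, 18 and 1 of them, against 1.82%, 2.39% and 1.12% of all genes. Limma called 0 of the 34, with 16 higher and 0 lower at an unadjusted p under 0.05, beside 4.94% and 3.17% of all genes. Without the wild-type pair it called 7, namely Egr2, Fos, Atf3, Junb, Csrnp1, Arc and Ier3, and without either other pair 0. The pair left out for the 7 is the one that stood apart, so these calls are a description. Egr2, Atf3 and Arc were above background on arrays numbered 1 only, so they passed the detection filter through those arrays. Fos, Egr2, Egr3, Arc and Ptgs2 were within background on both wild-type arrays, so that pair gives no direction for them. Of the 34, 34 and 29 were above background on the IKKa-/- arrays numbered 1 and 2. On the reconstituted arrays 34 and 26 were, and on the wild-type arrays 28 and 25. Each genotype has 1 array per number, so whether the difference varies with genotype had no test.

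Egr2, a zinc finger factor induced by serum, read 8.64 and 4.94 on the IKKa-/- arrays numbered 1 and 2, 9.66 and 5.46 on the reconstituted arrays, and 5.25 and 4.67 on the wild-type arrays. Only the arrays numbered 1 of IKKa-/- and reconstituted cells were above background, at least 6.31-fold and at least 9.13-fold over their partners. Fos, the AP-1 subunit, read 8.14 and 5.62, 9.03 and 6.69, and 5.87 and 6.17 in the same order of genotypes, with both wild-type arrays within background. Egr1 had differences of 2.46, 1.41 and -0.32, and Jun 2.25, 0.54 and -0.29. Ccn1 and Ccn2, matricellular proteins that answer to serum and to YAP, had 1.15, 1.38 and -1.0 and 1.46, 1.43 and -0.77. Junb and Csrnp1 were higher in all 3 pairs and least so in wild-type cells, with log2 differences of 2.71, 2.34 and 1.42 for Junb, and 7.68-fold, at least 5.68-fold and 1.69-fold for Csrnp1. Atf3, a stress-induced factor, was above background on the arrays numbered 1 only, which gives at least 6.77-fold, 2.61-fold and 1.02-fold.

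Interferon-stimulated genes stood apart in the reconstituted pair instead. By normalized signals, 32 of 32 tested were higher on the array numbered 1 in IKKa-/- cells, 8 in reconstituted and 32 in wild-type cells. The shares over all tested genes were 48.2%, 48.0% and 51.4%. However, Ifit3, Trim30a and Cmpk2 were within background on both wild-type arrays, so that pair gives no direction for them. The same held on the reconstituted arrays for Isg15, Rsad2, Trim30a, Cmpk2, Igtp and Irgm2. Ifi35, Ifi47 and Uba7 gave no bound in the reconstituted pair. The list's medians were 0.99, -0.22 and 0.97, or 0.99, -0.01 and 0.56 with dim members at their bounds. Limma called 0 of the 32, with 11 higher and 0 lower at an unadjusted p under 0.05, beside 4.94% and 3.17% of all genes. Without the reconstituted pair it called 6, namely Isg15, Gbp3, Igtp, Irgm2, Oas1g and Ifi27l2a. Without the wild-type pair it called 1, Cxcl10, and without the IKKa-/- pair 0. The reconstituted pair is the one that stood apart, so the 6 calls are a description. Irgm2 and Cxcl10 were above background on arrays numbered 1 only, so they passed the detection filter through those arrays. Above background were 32 and 30 of the 32 on the IKKa-/- arrays numbered 1 and 2, 25 and 22 on the reconstituted arrays, and 29 and 18 on the wild-type arrays. Their summed normalized signals were 35600 and 18000 intensity units in IKKa-/- cells, 11800 and 16000 in reconstituted cells, and 16000 and 8290 in wild-type cells.

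Isg15, a ubiquitin-like protein, read 10.21 and 7.11 on the IKKa-/- arrays numbered 1 and 2, 5.76 and 5.86 on the reconstituted arrays, and 9.12 and 6.37 on the wild-type arrays. Both reconstituted arrays were within background, beside an 8.56-fold difference in IKKa-/- cells and 6.72-fold in wild-type cells. Usp18, the protease that removes ISG15 from proteins, was 3.65-fold higher on the array numbered 1 in IKKa-/- cells, at least 2.13-fold lower in reconstituted cells and at least 1.44-fold higher in wild-type cells. Oas1g, of the RNA-sensing synthetase family, was 4.02-fold higher, 1.16-fold lower and at least 3.25-fold higher in the same order. Rsad2, the antiviral protein viperin, was 10.3-fold higher in IKKa-/- cells and at least 1.59-fold in wild-type cells, again with both reconstituted arrays within background. Cxcl10, which belongs to the chemokine list as well, was above background on the arrays numbered 1 only, at least 5.74-fold, 1.32-fold and 1.41-fold over their partners. Among 14 tested genes of MHC class I antigen presentation, the reconstituted pair again had the lowest median, at 0.37, 0.02 and 0.55. Of collagens and matrix proteins, 22 of 29 tested were higher on the array numbered 1 in IKKa-/- cells, 9 in reconstituted cells and 24 in wild-type cells. Of the 9 tested fibroblast markers 6, 1 and 7 were higher, with summed signals of 5970 and 5780 units in IKKa-/- cells, 15900 and 18600 in reconstituted cells and 4520 and 4190 in wild-type cells on the arrays numbered 1 and 2. Their part in the interferon result was not tested.

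**Figure D3:**
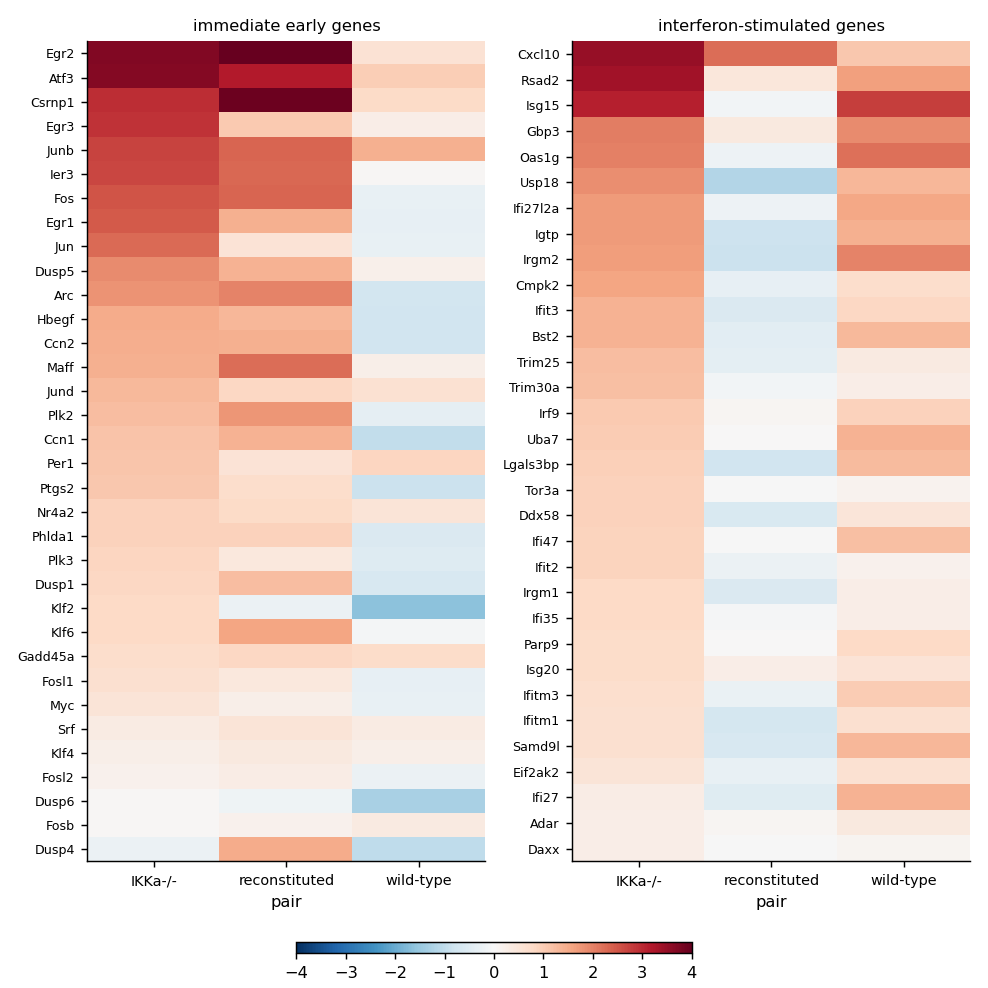
Log2 difference, array numbered 1 minus number 2, in each genotype pair for the 34 tested immediate early genes and the 32 tested interferon-stimulated genes, ordered by the IKKa-/- pair, with red for higher on the array numbered 1. Immediate early genes are red in 33, 32 and 15 rows of the IKKa-/-, reconstituted and wild-type columns, and interferon-stimulated genes in 32, 8 and 32. Colours follow normalized signals, and members within background on both arrays of a pair have no firm direction there.

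The stress lists had unlike counts. Of 16 tested genes of the unfolded protein response 8 were higher on the array numbered 1 in all 3 pairs, and of 15 amino acid stress genes driven by ATF4, 9 were, both against 14.9% of all tested genes. Limma called 0 in either list, and 5 and 4 were higher at an unadjusted p under 0.05, beside 4.94% of all genes. Ppp1r15a, a phosphatase subunit that restarts translation, was 2.56-fold higher in IKKa-/- cells, at least 3.37-fold in reconstituted cells and 1.94-fold in wild-type cells. Ddit3, the stress factor CHOP, read 10.50 and 9.32, 9.43 and 7.90, and 9.66 and 8.68 on the arrays numbered 1 and 2 of IKKa-/-, reconstituted and wild-type cells. Its differences of 1.18, 1.52 and 0.98 had a limma adjusted p of 0.143. Chac1 had 1.13, 1.42 and 1.05 (0.143). Hspa5, the main chaperone of the endoplasmic reticulum, had 0.02, 0.39 and 0.37. Of 15 heat shock proteins, 1 was higher and 2 were lower in all 3 pairs, with medians of 0.05, 0.04 and -0.28. Of 21 genes of the Nrf2 and glutathione list, 2 were higher and 4 lower in all 3, with medians of 0.02, -0.10 and -0.13. Ribosomal protein genes had medians of 0.00, 0.04 and -0.07 over 52 members, and mitosis genes -0.10, 0.07 and 0.00 over 30.

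**Figure D4:**
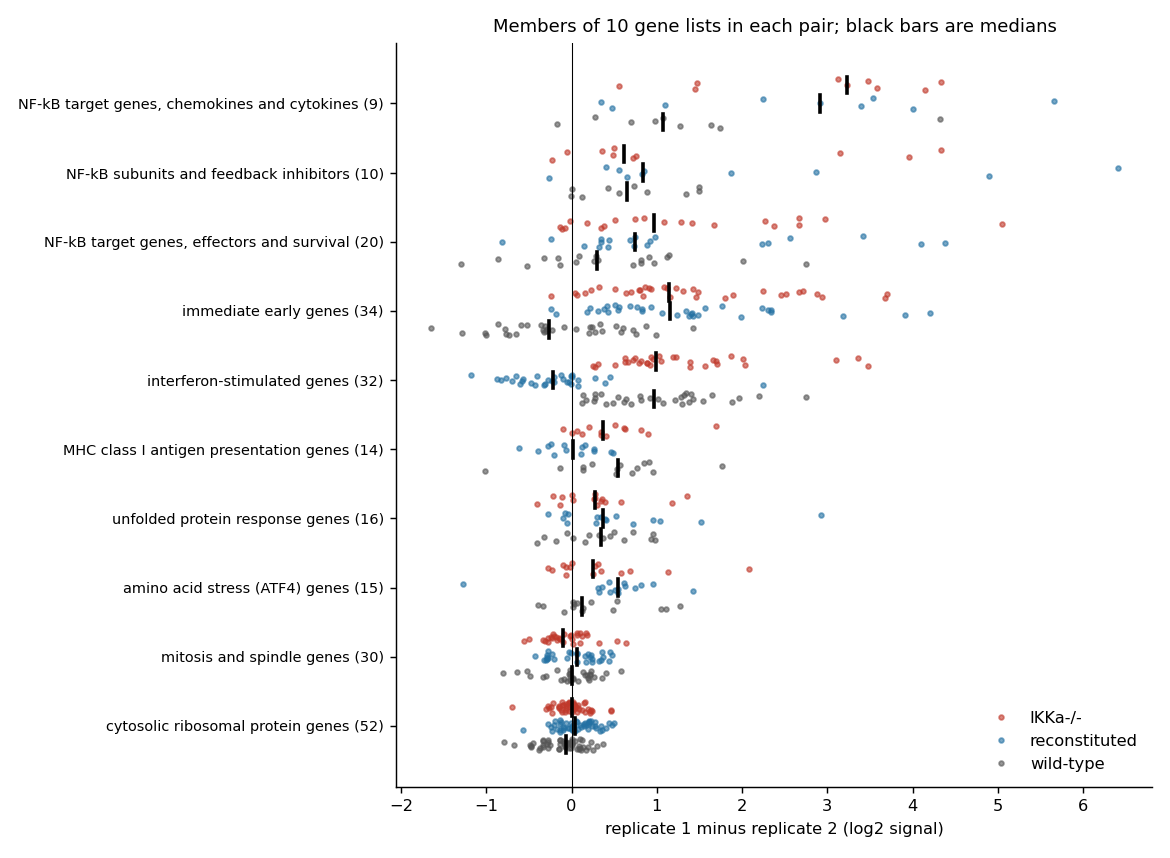
Log2 difference, array numbered 1 minus number 2, for every tested member of 10 gene lists, with IKKa-/- above reconstituted above wild-type within each list, black bars at the medians and the number tested in brackets. The chemokines have medians of 3.23, 2.91 and 1.07, and the ribosomal protein genes lie around 0 in all 3 pairs.

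Across all tested probes the pairs shared the difference unevenly. The Pearson correlation of pair differences was taken over 11666 probes, which are not independent replicates. It was 0.369 between IKKa-/- and reconstituted cells, 0.297 between IKKa-/- and wild-type cells and 0.051 between reconstituted and wild-type cells. The rank correlations (Spearman) were 0.218, 0.218 and -0.041 in the same order, so the lead of IKKa-/- with reconstituted cells was absent by rank. The SD of the pair differences was 0.414, 0.471 and 0.381 in IKKa-/-, reconstituted and wild-type cells. At least 2-fold higher genes numbered 135, 177 and 83, or 1.82%, 2.39% and 1.12% of all tested genes. At least 2-fold lower ones numbered 18, 45 and 27, or 0.243%, 0.607% and 0.364%. With dim arrays at their bounds the higher genes numbered 120, 75 and 43. By normalized signals, the IKKa-/- and reconstituted pairs shared 57 of the higher genes, 42.2% and 32.2% of their lists. The IKKa-/- and wild-type pairs shared 33, or 24.4% and 39.8%, and the reconstituted and wild-type pairs shared 19, or 10.7% and 22.9%.

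The widest departures of single pairs from the others are a description with no test. By normalized signals, 23 genes were named for them, but 22 had at least 1 array within background, where differences have no firm order. These 22 included Spon2, Colec12, Trappc11, Saa3, Egr3, Depp1, Med18, Stag1 and Apol9b. The one gene above background on all 6 arrays was Acta2, the smooth muscle actin gene. It read 8.10 and 9.72 in IKKa-/- cells, against 12.97 and 13.17 in reconstituted cells and 12.09 and 11.58 in wild-type cells. Over the 3 pairs this probe had a mean difference of -0.43, beside 0.13 and -0.56 for its other tested probes.

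**Figure D5:**
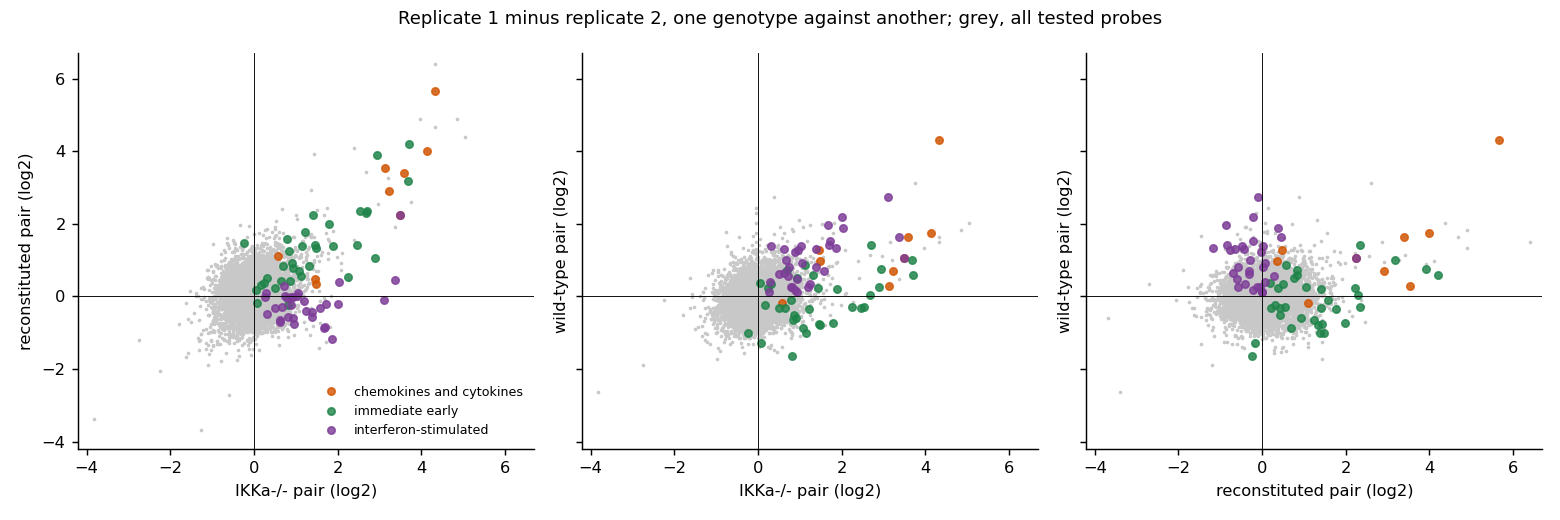
Pair differences (log2, array numbered 1 minus number 2) of one genotype against another for all 11666 tested probes in grey, with 3 gene lists in colour. Of the 9 chemokines and cytokines, 8 lie to the upper right in all 3 panels, immediate early genes lie high where IKKa-/- meets reconstituted cells (r = 0.369 over all probes), and interferon genes lie high where IKKa-/- meets wild-type cells (0.297).

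The medians between genotypes were also taken within each number. For chemokines and cytokines the median of IKKa-/- minus wild-type was 1.74 between arrays numbered 1 and -0.21 between arrays numbered 2, and for immediate early genes it was 1.67 and -0.11. Reconstituted minus wild-type gave 1.41 and -0.07 for the chemokines and 1.30 and -0.19 for the immediate early genes. For interferon-stimulated genes, reconstituted minus IKKa-/- gave -1.48 between arrays numbered 1 and -0.30 between arrays numbered 2, while IKKa-/- minus wild-type gave 1.06 and 0.99. On each array numbered 2, 5 of the 9 chemokines were above background, and dim members entered these medians at their normalized values. There was 1 array per genotype and number, so none of these differences had a test.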

How the data were processed

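The deposited array files list 1 average intensity for each of 46120 targets and, per the file headers, are unnormalized exports of BeadStudio 1.5.0.34. The deposited series matrix holds intensity values equal to the raw ones after quantile normalization. Gene symbols came from the annotation of the matrix probes, matched for 46116 targets, of which 29534 have 1 symbol, 11 several and 16575 none. The files hold no detection values, so 379 probes (352 immune-receptor segments and 27 spikes) served as background. The intensities were corrected with nec (offset 16), quantile normalized and taken to log2 with limma 3.58.1 in R 4.3.3. A probe counted as detected where under 1% of these background probes reached its signal, and the 11666 probes detected on at least 2 of 6 arrays were tested, for 7408 named genes. Probes above background only on arrays of the same number could pass this filter. A gene was represented by its probe with the highest mean.

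The model had genotype as a block and the replicate number as the effect, leaving 2 residual degrees of freedom beside 4.31 of the prior, two-sided, with Benjamini-Hochberg adjustment over all probes. An exact sign-flip test over 3 pairs cannot go below 0.25, so none is given. For an array within background a fold is a bound against the lowest signal above background there. Tested on simulated data (11666 probes, 200 of them changed, 20 draws), this comparison recovered 48.4% of 2-fold and 96.4% of 4-fold changes. On the arrays, by mean normalized signals, limma called Cxcl1 (27.3-fold), Hes1 (8.93-fold), Txnip (3.23-fold) and the clone target (9.71-fold lower). It did not call Irf1 (14.0-fold), Tnfaip3 (16.9-fold), Nfkbia (10.5-fold) or Ccl2 (9.8-fold), whose differences were uneven between the pairs. Whether the percentages hold for such uneven differences was not tested. The number of arrays limits the precision.

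Named genes were the 12 genes highest and the 12 lowest on the arrays numbered 1, by the difference in their weakest pair, filled with uncalled genes where fewer were called, up to 4 called or 3 uncalled members of each list by mean difference, 4 genes per genotype and direction that departed most from the other pairs, and Actb, Gapdh and Nfkbia. The comparison, the lists and the markers were chosen with earlier results of these data known. Other background corrections, normalizations, filters and variance priors, the deposited matrix, the fit without genotype and the fits without 1 pair were tried as alternatives.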

Additional observations from a re-analysis of the deposited data

Results flagged for a closer look

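For 3 gene lists every array pair was summarised by the median log2 difference, array numbered 1 minus array numbered 2, and at least 1 genotype pair lay on the other side of 0 from the rest. Immediate early genes had medians of 1.14 in the IKKa-/- pair, 1.15 in the reconstituted pair and -0.26 in the wild-type pair. Interferon-stimulated genes had 0.99 in the IKKa-/- pair, -0.22 in the reconstituted pair and 0.97 in the wild-type pair. Targets of YAP and TEAD, the transcription factors of the Hippo pathway, had 0.32 in the IKKa-/- pair, 0.26 in the reconstituted pair and -0.32 in the wild-type pair over 14 tested members. With dim members at their bounds the 3 lists had 1.12, 0.99 and 0.00, then 0.99, -0.01 and 0.56, then 0.32, 0.26 and -0.22, in the same order of lists and pairs, so the split in sign is not shown for the immediate early and interferon genes. The YAP and TEAD targets share Ccn1 and Ccn2 with the immediate early genes. Each genotype has 1 pair, so none of these differences between genotypes was tested.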

How the results depend on the processing

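Without background correction, and likewise on the deposited matrix, limma called 38 higher and 6 lower probes in place of 3 and 1. With an intensity trend it called 38 and 7, and among probes detected on all 6 arrays 20 and 2. Without a filter on dim probes it called 0 and 0 (1557 and 1613 at an unadjusted p under 0.05) and without genotype in the model 0 and 0 (107 and 54). With 1 pair left out the counts ran from 0 to 29 higher and 0 to 4 lower. Median scaling and cyclic loess gave 3 and 1. The same 4 probes were among the calls under every one of these settings that made any. The median of the chemokines, 2.28 over the mean of the 3 pairs, was 0.61 without the filter. That of NF-kB subunits and inhibitors, 0.63, was 0.37 without background correction and on the matrix, and 0.45 with either other filter. That of NF-kB effectors, 0.62, was 1.67 among probes detected on all 6 arrays. The cause was not tested.

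With 1 pair left out, mean differences of uncalled genes that turned sign ran between -0.91 and 0.16 (Acta2), -0.72 and 0.30 (Cd14), -0.28 and 0.46 (Lpl), -0.32 and 0.40 (Nes), -0.79 and 0.77 (Spon2), -0.36 and 0.91 (Colec12), -0.50 and 0.43 (Trappc11), -0.88 and 0.61 (Phf11d), -0.10 and 0.97 (Bdh2), -0.03 and 0.70 (Fndc10), -0.22 and 0.41 (Dixdc1), -1.35 and 0.23 (Med18), -0.13 and 0.91 (Stag1), -0.02 and 0.14 (Actb) and -0.10 and 0.12 (Gapdh). Without background correction and on the matrix, Spon2 had -0.13, Trappc11 -0.01 and Phf11d 0.11. Median scaling gave Phf11d 0.01, Dixdc1 -0.08 and Gapdh 0.00, and cyclic loess gave Phf11d 0.10 and Gapdh -0.01.

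The Pearson correlations of the pair differences were 0.369 (IKKa-/- and reconstituted), 0.297 (IKKa-/- and wild-type) and 0.051 (reconstituted and wild-type). The labels tie the numbers to no shared batch and 1 correlation was near 0, so the genotype comparisons were not treated as paired by number. With the replicate block, the genotype comparisons called 3613 probes (IKKa-/- minus wild-type), 1675 (reconstituted minus IKKa-/-) and 4521 (reconstituted minus wild-type), beside 3375, 1555 and 4241 without it. Targets near background give only bounds, and dim members lower a list's median when set at them.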

Other observations

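Among 13 tested clock genes, 6 were higher on the array numbered 1 in all 3 pairs and 2 lower in all 3, against 14.9% and 15.7% of all tested genes. Limma called 0, with 5 higher and 1 lower at an unadjusted p under 0.05, beside 4.94% and 3.17% of all genes. The medians were 0.05, 0.35 and 0.40 in IKKa-/-, reconstituted and wild-type pairs. Nr1d1, a repressor of the circadian loop, read 7.21 and 5.89 on the IKKa-/- arrays numbered 1 and 2, 7.46 and 6.11 on the reconstituted arrays, and 6.94 and 5.89 on the wild-type arrays. The 3 arrays numbered 2 were all within background and the 3 numbered 1 were above it, so the pairs give at least 2.34-fold, 1.99-fold and 1.59-fold (adjusted p 0.126 in limma). Bhlhe40, a repressor of the same loop that also answers to hypoxia, was 2.69-fold, 2.02-fold and 1.99-fold higher on the array numbered 1 in the same order (0.152). Per2 had log2 differences of -0.82, -0.50 and -0.64, and Per1 was above background on the 3 arrays numbered 1 only.

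The linker histone gene H1f2 was 2.58-fold, 3.11-fold and 1.81-fold higher on the array numbered 1 in IKKa-/-, reconstituted and wild-type cells (limma adjusted p 0.161), and H2bc4 was 1.38-fold, 1.84-fold and 1.46-fold higher (0.328). Ccne2, the cyclin of S phase entry, had differences of -0.81, -1.30 and -0.49 (0.303). DNA replication genes as a list had medians of -0.06, 0.14 and 0.00 over 35 tested members.

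Nuclear genes of the respiratory chain had medians of -0.13, -0.03 and -0.03 over 55 tested members, beside -0.01, -0.01 and 0.01 over all tested genes. Of these 17 were lower in all 3 pairs, against 15.7% of all tested genes. Limma called 0, with 0 higher and 1 lower at an unadjusted p under 0.05, beside 4.94% and 3.17% of all genes. Targets of the mitochondrial genome detected on all 6 arrays, 11 in number, had medians of -0.23, -0.12 and 0.24. Txnip, the called inhibitor of glucose uptake, stood beside glycolysis and hypoxia genes with medians of 0.38, -0.06 and 0.15.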
